A study of Mus musculus with 2 samples.

Results

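Vascular smooth muscle cells of the adult mouse striatum were taken as the barcodes with at least 300 detected genes, at least 1 unique molecular identifier (UMI, a count of 1 captured RNA molecule) for at least 3 of Acta2, Tagln, Myh11, Myl9, Cnn1 and Des, and at least 10 summed UMIs of Acta2, Tagln and Myh11. The members were thus selected on their own contractile UMIs, and the rule found 145 among 12262 barcodes with enough genes. Single-cell RNA was measured by droplet sequencing (10x Genomics) in 2 libraries, which the labels name replicates 1 and 2 of a single untreated condition: whole adult striatum of C57/Bl6J mice aged 8 to 10 weeks, enriched for glia. No sort for vessel cells was described, and the suspension passed a fine filter and a debris removal step. The protocol text names another C57BL/6 substrain than the strain label, and the study's methods give a slightly younger age than the age label. The labels do not say how mice were divided between the libraries, so p-values measure only the spread of group differences between these libraries. Library 1 held 6978 barcodes and 44597660 UMIs, and library 2 held 5437 barcodes and 37982720 UMIs. The libraries shared 9 barcode sequences, 0 of them among the members.

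Vascular smooth muscle cells wrap arteries, arterioles and veins and set vessel diameter. Calcium entry and release activate myosin light chain kinase, which phosphorylates myosin and drives sliding on actin, while nitric oxide acts through cyclic GMP to relax the cell. Pericytes, the mural cells of capillaries, lie along the same vessels and share part of this gene program. In smooth muscle the coactivator myocardin binds serum response factor, which recognises the CArG box in the promoters of many contractile genes.

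The CArG box was searched in the 250 bases before each RefSeq start (GRCm38.p6, the same assembly as mm10), as a pair of cytosines, 6 bases that are each adenine or thymine, and a pair of guanines. The box is its own reverse complement, so 1 strand covers both. It was present before the start of 1.47% of the tested genes that had a window, and in 1.47% of all windows. Among the rule genes with a window (4 of 6: Acta2, Myl9, Cnn1 and Des) Myl9 held it, and in the contractile list it stood before 3 of 19 genes, Myl6, Vcl and Filip1l. Acta2 held 2 copies with 1 core base that is guanine or cytosine; boxes with at most 1 such base occurred before 9.57% of the tested genes, and at least 2 of them before 0.788%. These matches are descriptions of letters and not of binding. The windows below carry the matches in the rule gene with the most UMIs (Acta2), in Myl9, in contractile genes that differed in level (Myl6) or did not pass the test (Vcl) against pericyte-like cells, and in Fbxl22, among the genes that rose most, with each box in capitals, 5′ to 3′ on the gene's strand.
Acta2, chr19:34255378-34255477, minus strand: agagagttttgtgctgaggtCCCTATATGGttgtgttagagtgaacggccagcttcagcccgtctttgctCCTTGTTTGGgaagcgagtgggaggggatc
Myl9, chr2:156775283-156775394, plus strand: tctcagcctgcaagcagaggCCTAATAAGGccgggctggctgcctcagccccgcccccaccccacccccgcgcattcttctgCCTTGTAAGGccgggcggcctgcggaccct
Myl6, chr10:128493030-128493079, minus strand: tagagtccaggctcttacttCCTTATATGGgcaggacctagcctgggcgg
Vcl, chr14:20929151-20929200, plus strand: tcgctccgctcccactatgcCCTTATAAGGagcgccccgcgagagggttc
Fbxl22, chr9:66514786-66514835, minus strand: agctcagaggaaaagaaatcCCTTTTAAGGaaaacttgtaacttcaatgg

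The members numbered 74 of 6898 barcodes in library 1 (1.07%, exact binomial 95% interval 0.843 to 1.34) and 71 of 5364 in library 2 (1.32%, 1.04 to 1.67). These intervals overlap, and they cover counting error only. The members were deep: a median of 9760.5 UMIs in library 1 (lowest 671, highest 58528) and 9420 in library 2 (lowest 1644, highest 42131), against 2550.5 and 2638.5 in pericyte-like barcodes. Mitochondrial genes held 6.36% of the members' UMIs in library 1 and 10.1% in library 2. Scrublet marked 2 and 6 of the members as doublets.

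The rule used the 6 contractile genes, so their levels are given as a description. Acta2, smooth muscle actin (chromosome 19, 34241090 to 34255590, minus strand, mm10), was at 17893 unscaled CPM (UMIs per 1000000 UMIs of the group, with no scaling factors) in the members of library 1 and 15224 in library 2. Tagln, the actin-binding protein transgelin, was at 12320 and 11571, and Myh11, the smooth muscle myosin heavy chain, at 3629 and 4337. Myl9, a regulatory myosin light chain, was at 6982 and 5809, and in pericyte-like barcodes still at 2081 and 2085. Des, the intermediate filament desmin, was at 649 and 654 in members and at 134 and 149 in pericyte-like barcodes. Cnn1, calponin, was at 360 and 480. Members held 96.8% and 97.9% of all Acta2 UMIs in barcodes with enough genes, and in microglia-like barcodes Acta2 was at 10.1 and 7.2 unscaled CPM. In pericyte-like barcodes Acta2 and Tagln were at 28.3 unscaled CPM or less and Myh11 at 46.2 and 41.5, which the limit of 2 summed UMIs of these genes in that group had fixed.

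Most members were far above the threshold. The summed Acta2, Tagln and Myh11 UMIs had a median of 400.5 in library 1 (10 to 1216) and 345 in library 2 (10 to 902), and 60 and 59 members had at least 100. All 6 rule genes were detected in 33 and 29 members, and 5 of them in 34 and 38. Just inside the threshold stood members with 10, 10 and 12 summed UMIs in library 1 and 10, 10, 10 and 11 in library 2, and just outside it barcodes with 9, 9 and 8 in library 1 and 8 and 6 in library 2. A further 4 and 3 barcodes reached 10 UMIs with under 3 of the genes, and those nearest the threshold held Tagln but no Acta2 or Myh11.

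**Figure D1:**
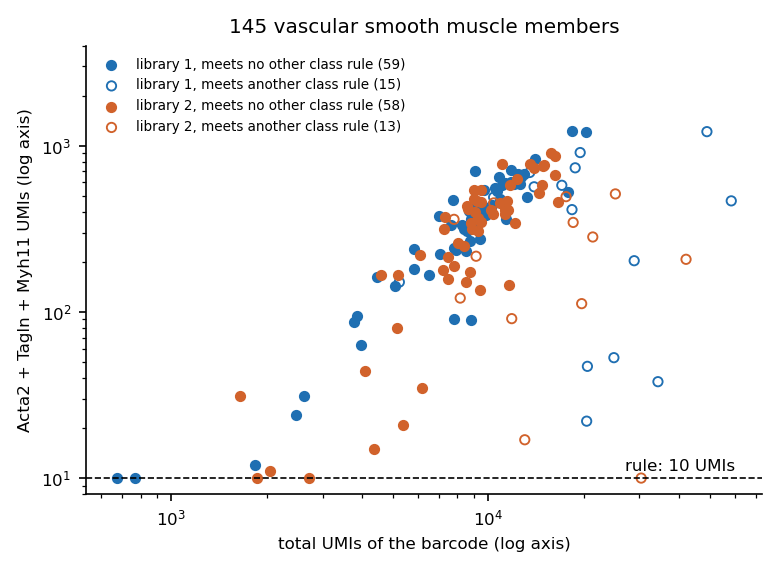
Total UMIs (x, log axis) against summed Acta2, Tagln and Myh11 UMIs (y, log axis) for each of the 145 members, coloured by library, with open circles for members that also met another class rule and the dashed line at the rule's 10 UMIs. Most members of both libraries lie between 100 and 1216 rule UMIs, and the open circles reach the largest UMI totals.

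Some members also carried RNA of other cell types. 15 members in library 1 and 13 in library 2 met another class rule as well, most often the astrocyte (7 and 2), endothelial (4 and 5) or oligodendrocyte rule (4 and 4). All 6 endothelial markers were detected in the members, at a summed 975 and 1012 unscaled CPM, led by Ly6c1 (374) in library 1 and Cldn5 (307) in library 2. The 6 oligodendrocyte markers summed to 6066 and 2515, and the 6 erythroid markers to 85.5 and 2304, led by Hbb-bs, with Slc4a1 at 0 in both libraries. Without those 28 members the endothelial sum was 37.4 and 38.7, the oligodendrocyte sum 763 and 302, and the erythroid sum 101 and 14.7. Tested against pericyte-like barcodes (in the comparison described below), 6 of the 6 endothelial and 4 of the 6 oligodendrocyte markers were higher in members, as were 1 neuron and 1 fibroblast marker, and 1 fibroblast marker was lower. Without the 28, which were left out by these same markers, 0 endothelial, oligodendrocyte or neuron markers and 1 fibroblast marker were higher, and 3 endothelial, 3 oligodendrocyte, 4 astrocyte, 3 fibroblast, 2 neuron and 1 erythroid markers were lower. List counts below are therefore also given for the 117 members that met no other rule (59 and 58) where they differ.

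The 6 genes of the pericyte rule summed to 1063 and 1651 unscaled CPM in the members, against 37425 and 39657 in pericyte-like barcodes, which were chosen on them. Kcnj8 and Abcc9, which form the pericyte ATP-sensitive potassium channel, were at 4.5 and 10.3, and at 4.5 and 6.4 unscaled CPM, against 1634 and 1698, and 1164 and 1079, in pericyte-like barcodes. Vtn, vitronectin, was at 421 and 656 in members and at 28966 and 30652 in pericyte-like barcodes. Higd1b was at 325 and 520 in members, and Ndufa4l2 at 295 and 428. These genes chose the pericyte-like group (at least 3 of 6 pericyte markers, at most 2 summed contractile UMIs, 132 and 106 barcodes), so they are not tested. At least 3 of the 6 markers were detected in 29 and 33 members. The limit on contractile UMIs kept every member from meeting the pericyte rule, so none was counted as of another class on these markers.

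For each comparison, UMIs were summed per library and group and fitted with edgeR, with the library as a block. Levels in these comparisons are CPM, the counts after TMM scaling of the totals, given for library 1 and then library 2, and p-values were adjusted by the Benjamini-Hochberg method over all genes tested. Against pericyte-like barcodes, 1233 of 12427 genes were higher in members (9.92%) and 839 lower (6.75%). Without TMM scaling the median fold change of all genes moved by -0.20 on the log2 scale and the calls became 945 higher and 1181 lower, so changes are read relative to that shift. Without the members of other classes, 1249 of 12050 genes were higher and 1160 lower, the background for the list counts given without them. Members held several times the UMIs of pericyte-like barcodes, so the comparison was repeated with every barcode thinned to 1000 UMIs, where 407 genes were higher and 285 lower, of 7144 tested. Thinning also leaves fewer counts, and the part of the depth gap in the calls was not tested further.

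The contractile list, 20 genes outside the rule, was mostly higher in members. The groups had been chosen on opposite limits of Acta2, Tagln and Myh11 UMIs, and the list with earlier results of these data known. The part of these choices in the differences was not tested. Against pericyte-like barcodes 17 rose, 0 fell and 3 did not pass the test, with a median log2 fold change of 3.52 where that of all tested genes was 0.10. Without the members of other classes 19 rose, and after thinning 17. Myl6, the most abundant gene of the list and a myosin light chain found in many cells, was at 7819 and 7681 CPM in members and 1120 and 1167 in pericyte-like barcodes (log2 fold change 2.76 ± 0.13 SE, adjusted p = 5.81e-08). The members' levels were alike in both libraries, and the groups did not overlap. Tpm2, a tropomyosin that winds along actin, was at 6141 and 6052 CPM against 218 and 165 (5.00 ± 0.18, adjusted p = 7.93e-09). Csrp1, a LIM protein of the actin cytoskeleton, stood at 2196 and 1963 against 55.1 and 44.4 (5.38 ± 0.23, adjusted p = 2.88e-08). For Mylk, the myosin light chain kinase itself, the levels were 1954 and 2379 against 281 and 301 (2.89 ± 0.16, adjusted p = 1.94e-07). Lmod1, leiomodin, which nucleates actin filaments, was at 722 and 651 against 15 and 6.34 (5.95 ± 0.32, adjusted p = 1.39e-07).

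The 3 contractile genes that did not pass the test were present in both mural groups. Without the members of other classes most of these 3 were called higher, as the list count above shows. Cald1, caldesmon, was at 2476 and 3027 CPM in members and 3164 and 3166 in pericyte-like barcodes (-0.21 ± 0.14, adjusted p = 0.38). Vcl, vinculin of cell adhesions, was at 333 and 453 against 338 and 412 (0.06 ± 0.16, adjusted p = 0.869). Ppp1r14a, an inhibitor of myosin phosphatase, was at 854 and 1079 against 639 and 622 (0.60 ± 0.22, adjusted p = 0.0861). Against the remaining barcodes, the 10817 that fell in none of the vessel groups, 2629 of 12433 genes were higher in members (21.1%) and 2752 lower (22.1%), 43.3% in either direction, and all 20 contractile genes were higher. The remaining barcodes mix classes, and Ppp1r14a was at 892 and 1379 unscaled CPM in oligodendrocyte-like barcodes against 783 and 983 in members. Without TMM scaling the split of all genes was 2098 higher and 3457 lower. Against endothelial-like barcodes, where 18.6% of genes were higher and 16.6% lower (35.1% in either direction), all 20 were higher as well.

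**Figure D2:**
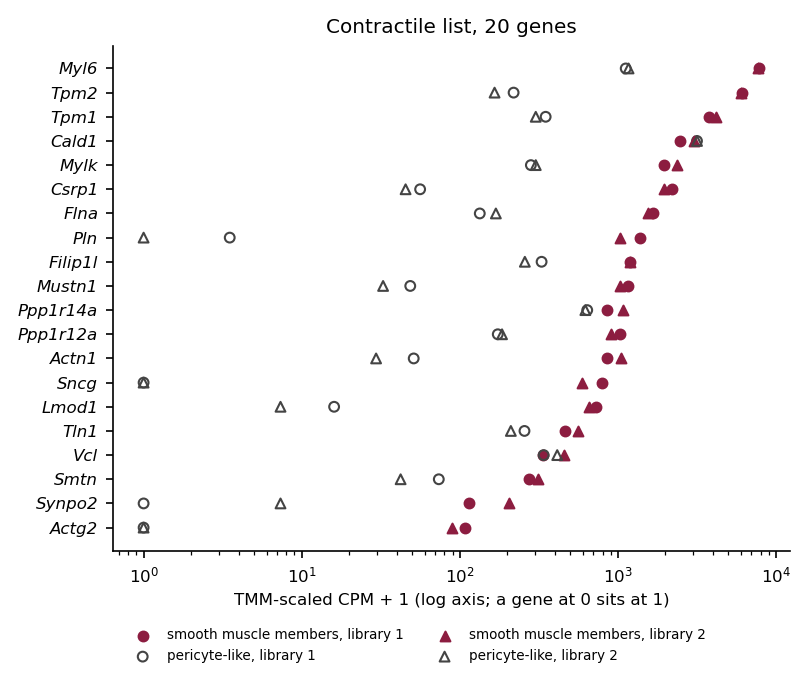
TMM-scaled CPM plus 1 (log axis) of the 20 contractile genes in members (filled) and pericyte-like barcodes (open), circles for library 1 and triangles for library 2. The filled symbols lie to the right for the 17 genes called higher. Those of Cald1, Vcl and Ppp1r14a lie close to the open ones, with values that overlap between the groups only for Vcl.

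Several of the genes that rose most over pericyte-like barcodes, by fitted fold change, had 0 UMIs there in both libraries. Their ratio is therefore given as a lower bound against a floor of 3 UMIs over the group. Sncg, gamma-synuclein, was at 793 and 591 CPM in members and at 0 in pericyte-like barcodes, at least 166-fold higher (adjusted p = 2.16e-07), and it had a UMI in 85.1% and 87.3% of members. Fbxl22, an F-box protein of the sarcomere, was at 448 and 362 CPM, at least 97.2-fold higher (adjusted p = 2.16e-07). Aoc3, the amine oxidase known as vascular adhesion protein, was at 215 and 233 CPM, at least 53.1-fold higher (adjusted p = 2.06e-05). Each of these was detected in most members, and in both libraries alike.

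Pln, phospholamban, which restrains the calcium pump of the sarcoplasmic reticulum, was at 1375 and 1031 CPM in members and had 1 UMI in all pericyte-like barcodes, 868-fold higher with an exact counting interval of 156 to 34293 (adjusted p = 2.88e-08). Palld, the actin scaffold palladin, was at 879 and 910 CPM and also had 1 UMI there, 638-fold higher (114 to 25220, adjusted p = 3.05e-08). Further genes at 0 in pericyte-like barcodes were Npnt (nephronectin), Thbs1 (thrombospondin), Smim5, Actg2 (enteric smooth muscle actin), Myocd (myocardin), Ccn3, Grip2, Plin4 (a lipid droplet coat protein), Myl4 (a myosin light chain of the atrium) and Cd93, at least 18.6-fold to 29.8-fold higher. Some of these rises came from a minority of members: among those that met no other class rule, Ccn3 had a UMI in 6 of 59 and 11 of 58, and Actg2 in 13 of 59 and 11 of 58. Their adjusted p ranged from 6.94e-05 for Cd93 to 0.0126 for Plin4. All 15 remained called without the members of other classes.

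Cd93 is best known as an endothelial receptor, and endothelial-like barcodes held 360 and 505 unscaled CPM of it. In members that met no other class rule Cd93 was at 44.9 and 62.6 unscaled CPM, detected in 13 of 59 and 20 of 58. These members had been kept for not meeting the endothelial rule, so their low endothelial markers were fixed by that choice, and the part of endothelial RNA in the Cd93 level was not tested.

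Against the remaining barcodes the largest rises were Pln, Mustn1, Lmod1, Tpm2, Pdlim3, Aoc3, Fbxl22, Myocd, Map3k7cl and Olfr558, with log2 fold changes from 8.68 ± 0.24 to 10.46 ± 0.26 and adjusted p from 3.49e-11 to 2.83e-08. Pdlim3, a PDZ and LIM protein of actin bundles, was at 358 and 334 CPM in members against 0.458 and 0.464. Olfr558, an odorant receptor gene, was at 189 and 240 CPM against 0.409 and 0.246. Map3k7cl was at 363 and 169 CPM in members.

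Among the genes lowest relative to pericyte-like barcodes, Nts, the peptide neurotensin, was at 4.91 and 1.41 CPM in members against 774 and 406, 186-fold lower (counting interval 79.3 to 577, adjusted p = 2.42e-08). Ggt1, gamma-glutamyltransferase of glutathione metabolism, had 1 UMI in all members against 554 and 450 CPM (774-fold lower, 138 to 30667, adjusted p = 2.88e-08). Saa1 and Saa2, acute-phase serum amyloids, were at 0 in members, at least 62.6-fold and 26.3-fold lower, as were Ptpn22 (at least 32.0-fold) and the chemokine Ccl11 (at least 31.3-fold). Slc22a8, an organic anion transporter, was at 3.68 and 5.64 CPM against 358 and 441 (-6.37 ± 0.27, adjusted p = 2.52e-08), and at 0 in members that met no other rule. Hic1, a transcriptional repressor, had 1 UMI in all members against 203 and 251 CPM (341-fold lower, 60.4 to 13564). Pla1a, a phospholipase, was at 2.46 and 4.23 CPM against 454 and 279 (115-fold lower, 48.6 to 356), with a log2 fold change of -7.43 in library 1 and -5.99 in library 2. Nodal, a ligand of the TGF-beta family, had 3 UMIs in members, all in library 1, against 223 and 136 CPM (93.9-fold lower, 31.4 to 461). Of the pericyte genes outside the rule, 6 of 6 were lower (Art3, Slc6a20a, P2ry14, Anpep, Cox4i2 and Slc19a1), with a median log2 fold change of -4.15.

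Among 16 genes of ion handling 6 were higher, 2 lower and 8 did not pass the test, with a median of 0.15 that became -0.05 without TMM scaling. After thinning 4 of 14 were higher and 1 lower, and without the members of other classes 6 were higher and 1 lower. The voltage-gated and calcium-activated potassium channels, which hyperpolarise the cell and close calcium channels, were among those that rose. Kcna5 was at 126 and 102 CPM in members against 2.51 and 0 in pericyte-like barcodes, where it had 1 UMI (82.0-fold, 14.5 to 3259, adjusted p = 0.000227). Its accessory subunit Kcnab1 was at 182 and 203 against 5.01 and 9.52 (4.75 ± 0.41, adjusted p = 7.27e-06). Kcnma1, the pore of the large-conductance channel, was at 68.7 and 98.7 against 7.52 and 6.34 (3.52 ± 0.43, adjusted p = 0.000103), and its smooth muscle subunit Kcnmb1 at 135 and 134 against 65.1 and 76.1 (0.94 ± 0.25, adjusted p = 0.0227).

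On the sarcoplasmic reticulum, the calcium pump Atp2a2, inhibited by Pln, was at 765 and 998 CPM against 286 and 216 (1.82 ± 0.23, adjusted p = 0.00012). The release channel Ryr2 was at 50.3 and 56.4 CPM in members and had 1 UMI in pericyte-like barcodes (adjusted p = 0.000457). The other release channel, Itpr1, was at 179 and 238 against 318 and 222 (-0.39 ± 0.22, adjusted p = 0.27). Cacna1c, the pore of the L-type calcium channel, was at 52.8 and 67.7 against 72.7 and 34.9 (0.15 ± 0.36, adjusted p = 0.839), so the pericyte-like values spanned those of the members. The sodium pump subunit Atp1b2 was lower at 442 and 471 against 737 and 739 (-0.70 ± 0.21, adjusted p = 0.0362). Against the remaining barcodes, a mixture of classes, all 16 were higher. Single classes could still exceed the members, and Atp1b2 was at 859 and 1328 unscaled CPM in astrocyte-like barcodes against 405 and 429 in members. Kcnma1, Cacna1c, Cacnb2, Itpr1 and Ryr2 were higher in neuron-like barcodes than in members in both libraries. Kcnma1 was at 99.5 and 157 unscaled CPM there against 63.0 and 89.9, and Cacna1c at 72.0 and 73.4 against 48.4 and 61.7.

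Among vasoactive receptors 12 of 17 genes were abundant enough to test, and 4 rose, 4 fell and 4 did not pass the test against pericyte-like barcodes. Npy1r, the receptor of the constrictor neuropeptide Y, was at 290 and 293 CPM against 55.1 and 53.9 (2.41 ± 0.30, adjusted p = 0.000132). Ramp1, a partner of the CGRP receptor, was at 327 and 196 against 45.1 and 6.34 (3.24 ± 0.44, adjusted p = 0.000238), while its receptor Calcrl was at 18.4 and 22.6 against 22.6 and 28.6 (adjusted p = 0.679). P2rx1, an ATP-gated channel, was at 83.5 and 97.3 against 32.6 and 12.7 (1.92 ± 0.43, adjusted p = 0.00921), and the serotonin receptor Htr1b at 40.5 and 42.3 against 5.01 and 3.17 (3.28 ± 0.68, adjusted p = 0.00509). Npy1r, Ramp1, P2rx1 and Htr1b were each higher in members in both libraries. After thinning 2 of 10 receptors were higher and 2 lower. Without the members of other classes 4 of 11 were higher and 4 lower, with Ednra no longer called and the thrombin receptor F2r called lower.

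The 4 receptors that fell were those of thromboxane, adenosine and endothelin. Tbxa2r was at 52.8 and 97.3 CPM in members against 371 and 368 (-2.32 ± 0.25, adjusted p = 4.05e-05), and Adora2a at 13.5 and 19.7 against 160 and 117 (-3.07 ± 0.35, adjusted p = 6.02e-05). Ednra was at 135 and 118 against 198 and 222 (-0.72 ± 0.22, adjusted p = 0.0453), a call that was lost without the members of other classes (adjusted p = 0.401), and Ednrb at 20.9 and 15.5 against 100 and 34.9 (-1.94 ± 0.49, adjusted p = 0.017). Of the 17 and 11 Ednrb UMIs in members, 1 in each library came from members that met no other class rule, and without the others the log2 fold change was -4.94 (adjusted p = 3.29e-05). Ednrb did not pass the test with a member threshold of 5 UMIs or after thinning (adjusted p = 0.1 and 0.166). Agtr1a, Adra1d and Avpr1a had 0 UMIs in the members, which allows up to 1.97 CPM (3 UMIs over both libraries).

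In the nitric oxide and cyclic nucleotide list 9 of 10 genes were tested, of which 5 rose, 1 fell and 3 did not pass the test, and after thinning 2 of 8 were higher and 1 lower. Without the members of other classes 5 rose and 2 fell. Of the 4 phosphodiesterases, which break down cyclic nucleotides, 3 rose: Pde3a was at 447 and 546 CPM against 108 and 57.1 (2.55 ± 0.30, adjusted p = 7.12e-05), Pde1a at 162 and 140 against 42.6 and 38.1 (1.89 ± 0.33, adjusted p = 0.00147) and Pde5a at 367 and 344 against 200 and 222 (0.76 ± 0.20, adjusted p = 0.0231). The other, Pde3b, was at 12.3 and 1.41 against 20.0 and 6.34 (-0.93 ± 0.78, adjusted p = 0.479), but all of its member UMIs came from members that met another class rule, and it was at 0 in the others. The cyclic GMP-dependent kinase Prkg1 and its substrate Mrvi1 rose by 1.10 ± 0.25 and 2.41 ± 0.30 on the log2 scale (adjusted p = 0.00934 and 0.00012). The subunits of the nitric oxide receptor, soluble guanylate cyclase, gave unlike values: Gucy1a1 was at 316 and 409 against 353 and 365 (adjusted p = 0.99), and Gucy1b1 was lower at 293 and 382 against 727 and 806 (-1.19 ± 0.19, adjusted p = 0.000754).

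Of 18 transcriptional regulators 3 rose, 7 fell and 8 did not pass the test, and without the members of other classes 3 rose and 3 fell. Without TMM scaling 2 rose and 9 fell, and after thinning 0 of 16 rose and 3 fell. Myocd, at 85.9 and 110 CPM, was at 0 in pericyte-like barcodes (at least 23.1-fold higher, adjusted p = 0.00018), whereas its partner Srf was at 28.2 and 33.8 against 12.5 and 22.2 (0.86 ± 0.46, adjusted p = 0.244). Mef2c was at 575 and 698 CPM against 413 and 431 (0.58 ± 0.18, adjusted p = 0.0418, and 0.186 without TMM scaling). Zic1, a patterning factor, fell, at 122 and 159 CPM against 712 and 619 (-2.24 ± 0.23, adjusted p = 3.19e-05), and Foxf2 fell by 2.23 ± 0.27 on the log2 scale (adjusted p = 9.25e-05). Notch3, the Notch receptor of mural cells, was at 390 and 520 against 576 and 872 (-0.66 ± 0.19, adjusted p = 0.0296), and its call was lost without the members of other classes (adjusted p = 0.101), as were those of Heyl, Tbx2 and Nr2f2.

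The matrix list moved in both directions. Among 20 of 22 genes tested, 9 were higher, 4 lower and 7 did not pass the test, and after thinning 8 of 18 were higher and 2 lower. Without the members of other classes 10 were higher and 3 lower. Eln, elastin (chromosome 5, 134702593 to 134747323, minus strand, mm10), was at 297 and 336 CPM in members and had 1 UMI in pericyte-like barcodes (225-fold, 40.2 to 8906, adjusted p = 6.17e-07). Lox, which cross-links elastin and collagen, was at 58.9 and 76.1 and also had 1 UMI there (adjusted p = 0.0045). Fn1, fibronectin, was at 122 and 193 against 15 and 19 (3.19 ± 0.34, adjusted p = 3.76e-05), and the laminin chain Lama5 at 165 and 189 against 5.01 and 6.34 (4.93 ± 0.37, adjusted p = 2.32e-06). Sparcl1, the most abundant gene of the list, was at 5571 and 6196 against 2706 and 2281 (1.23 ± 0.15, adjusted p = 0.000103).

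The 4 matrix genes that fell were Nid1, Lamc1, Col4a1 and Sparc, while the basement membrane genes Lama5, Lamb2 and Col18a1 rose. Nid1, nidogen, was at 74.9 and 134 CPM against 626 and 552 (-2.52 ± 0.23, adjusted p = 9.99e-06), and Lamc1, a laminin chain, at 156 and 237 against 692 and 780 (-1.92 ± 0.18, adjusted p = 1.41e-05). The call for Col4a1 (-0.53 ± 0.15, adjusted p = 0.0303) was lost without the members of other classes (adjusted p = 0.355). Mgp, an inhibitor of calcification, was at 935 and 1595 in members against 995 and 1126 (adjusted p = 0.616), and Col1a1, counted among the 9 that were higher, had 5 UMIs in the members of library 1 and 42 in those of library 2. In members that met no other class rule it had 0 UMIs in library 1 and 28 in library 2, all in 1 of 58 members, so its call rested on a few members.

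Genes that mural cells share were mostly lower than in pericyte-like barcodes. Pdgfrb, the receptor that recruits mural cells to vessels, was at 277 and 376 CPM against 1701 and 1824 (-2.44 ± 0.19, adjusted p = 2.91e-06), and Rgs5 at 2707 and 3844 against 5109 and 5330 (-0.70 ± 0.15, adjusted p = 0.00709). Mcam rose, at 604 and 678 against 203 and 305 (1.36 ± 0.17, adjusted p = 0.000128). In all, 1 of 6 mural genes rose and 4 fell, and without the members of other classes 1 rose and 2 fell, Cspg4 and Notch3 no longer passing the test. After thinning Rgs5 did not pass the test (adjusted p = 0.522), and without the block it was at 0.0817. All 6 were higher than in the remaining barcodes and than in endothelial-like barcodes.

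Immediate early genes are induced within minutes by stress and activity, dissociation included. Against pericyte-like barcodes 4 of 10 rose (Fos, Junb, Egr1 and Atf3) and 1 fell (Jund), with 2 rising without TMM scaling or after thinning (Fos and Junb) and 5 rising without the members of other classes, whereas against endothelial-like barcodes 0 rose and 8 fell, with a median log2 fold change of -1.57. Fos was at 165 and 290 CPM in members, at 67.7 and 136 in pericyte-like barcodes (1.17 ± 0.21, adjusted p = 0.00182) and at 470 and 710 in endothelial-like barcodes (-1.40 ± 0.16, adjusted p = 2.47e-05). The study's methods added a transcription blocker during dissociation. The comparisons share the members, and the part of the dissociation in these values was not tested.

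**Figure D3:**
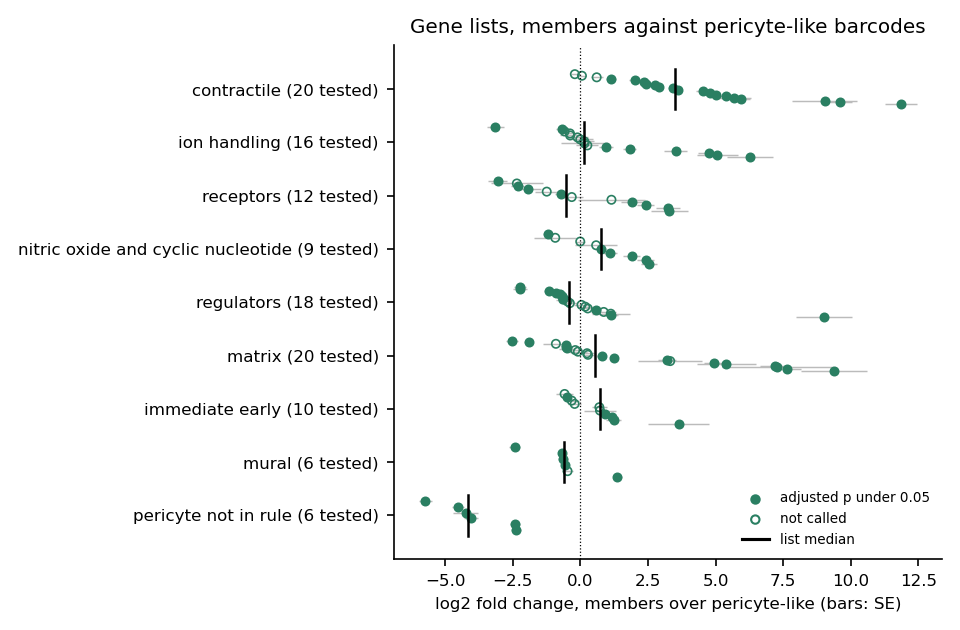
Log2 fold change of members over pericyte-like barcodes for every tested gene of 9 lists, with bars for the standard error, filled points for adjusted p under 0.05 and a black line at each list's median. The contractile median lies at 3.52, that of the pericyte genes outside the rule at -4.15, and the other lists spread to both sides of 0.

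The members varied among themselves in Rgs5, a regulator of G protein signalling known from pericytes. The description rests on the 117 members that met no other class rule, ordered within each library by Rgs5 UMIs per 10000 UMIs and divided at the middle into a low-Rgs5 and a high-Rgs5 set of 29 members each, with 1 member of library 1 left out. No member could meet the pericyte rule, which allows at most 2 summed contractile UMIs, so members with pericyte RNA were not left out. The division by Rgs5 was chosen after the values had been seen, and it is given with no test. In library 1 the low set ranged from 0 to 6.47 Rgs5 UMIs per 10000 (median 1.03) and the high set from 9.43 to 339 (median 30.7), and in library 2 the low set reached 7.43 (median 0) and the high set 341 (median 51.5). The low set was deeper in both libraries, with medians of 10807 and 8574 UMIs in library 1 and 9507 and 8556 in library 2, and had the higher median mitochondrial share, 7.19% against 5.98% and 12.1% against 9.96%. The part of depth and mitochondrial share in the differences between the sets was not tested.

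Cnn1 is a gene of the member rule, so its values here are a description and support nothing about the division. The median share of all 6 rule genes in a member's UMIs also differed, at 5.15% in the low and 3.11% in the high set of library 1 and 4.82% and 3.21% in library 2. Cnn1 had a UMI in 24 of 29 low-Rgs5 members and 5 of 29 high-Rgs5 members of library 1, and in 25 and 5 of library 2. In microglia-like barcodes Cnn1 had a UMI in 0.0977% and 0, at median depths of 7233 and 5615 UMIs. Its level was 740 unscaled CPM in the low set and 60.2 in the high set of library 1, and 1020 and 150 in library 2. Spearman's rho between the per-cell shares of Rgs5 and Cnn1 was -0.70 over 59 members and -0.76 over 58, given as a description, since the cells of each value share a library and both shares are taken of the same UMI total.

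**Figure D4:**
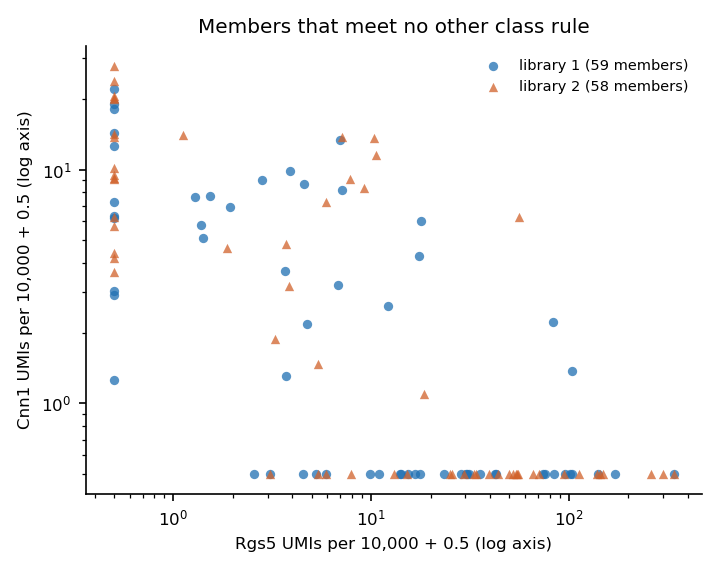
Rgs5 (x) and Cnn1 (y, a gene of the member rule) UMIs per 10000 UMIs, each plus 0.5 on log axes, for the 117 members that met no other class rule, circles for library 1 and triangles for library 2. Members with the most Rgs5 lie along the bottom, where Cnn1 is at 0, and those without Rgs5 along the left, where Cnn1 is mostly above 0.

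Of 1739 genes with at least 100 UMIs in these members, 1119 differed between the sets in the same direction in both libraries. Those genes, without mitochondrial genes and Rgs5, were ordered by their mean log2 difference between the sets. The agreement of the libraries was thus fixed by that choice. The 12 that were most raised in the low-Rgs5 set were Actg2, Ccn3, Igfbp2, Fn1, S100a6, Pi15, Cnn1, Eln, Col8a1, Ptgis, Igfbp4 and Sh3bgr. Actg2 was at 252 and 182 unscaled CPM in the low set and at 0 in the high set of both libraries, and Eln at 529 and 650 against 64.5 and 81.3. Ptgis, prostacyclin synthase, which makes a relaxant of vessels, was at 774 and 549 against 164 and 65.0.

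Among the 12 that were most raised in the high-Rgs5 set were Vtn, Ndufa4l2, Ano1, Higd1b, Ackr3, Sept4, Olfr558, Ptn, Bcas3, Cox4i2 and Inpp4b. Vtn was at 917 and 1374 unscaled CPM in the high set and 44.3 and 43.8 in the low set. Ano1, a calcium-activated chloride channel, was at 237 and 260 against 23.9 and 40.4. At least 3 pericyte markers were detected in 20 of 29 high-Rgs5 members against 3 of 29 in library 1, and in 22 against 3 in library 2, while the Vtn level of the high sets remained far under the 28966 and 30652 of pericyte-like barcodes.

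Other contractile genes, of which Acta2, Myl9 and Des belong to the member rule, had closer levels in the sets. Acta2 was at 26864 and 23138 unscaled CPM in the low sets and 18456 and 14093 in the high sets, Tpm2 at 8681 and 8613 against 4824 and 4785, and Myl9 at 8708 and 7333 against 8550 and 6785. Des was at 907 and 828 against 964 and 801, and Myocd at 113 and 101 against 90.4 and 130, without a common direction. Of the potassium channel genes, Kcnma1 was at 95.5 and 178 in the low sets against 34.4 and 36.6, Kcna5 at 95.5 and 50.5 against 194 and 159, and Kcnj12 at 40.9 and 33.7 against 64.5 and 56.9. Kcnab1 was higher in the low sets of both libraries, at 235 and 253 against 228 and 199. Kcnmb1 had no common direction, at 133 and 155 against 164 and 130. Notch3 was higher in the high sets, at 602 and 687 against 280 and 354, and Mgp had no common direction, at 880 and 2471 in the low sets against 1502 and 902.

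**Figure D5:**
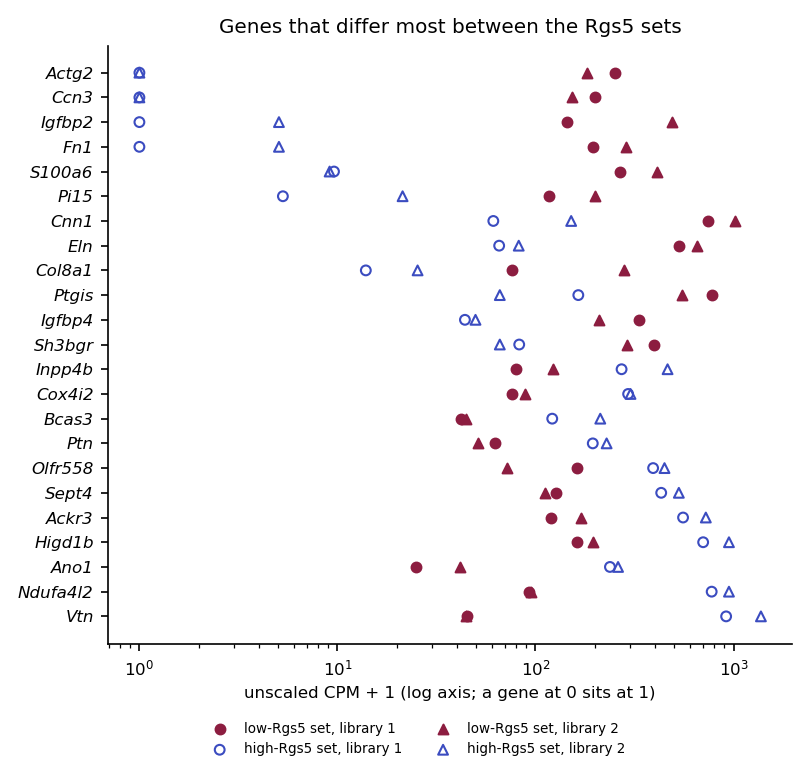
Unscaled CPM plus 1 (log axis) of genes among the 24 that differed most between the low-Rgs5 (filled) and high-Rgs5 (open) sets of 29 members each, circles for library 1 and triangles for library 2. The first 12 genes lie to the right in the low-Rgs5 sets, with Actg2 and Ccn3 at 0 in the high sets, and the others to the right in the high-Rgs5 sets.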

How the data were processed

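Droplet single-cell RNA libraries were read as the deposited UMI counts per gene and barcode, raw and without normalization, which the authors made with Cell Ranger on mm10 (the matrix header gives version 4.0.0 and the submitters' processing notes 4.0). Members, gene lists and most tests were chosen with earlier results of these data known. Barcodes with at least 300 genes were kept, and doublets were marked (Scrublet in scanpy 1.11.5, expected rate 6%) but not removed: 95 in library 1 (1.38%) and 150 in library 2 (2.80%). Cell classes were rebuilt here from markers, and any gap to the study's own classes may lie in that step.

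Counts were summed per library and group (members, pericyte-like, endothelial-like and remaining barcodes, 8 sums) and fitted with edgeR 4.0.16 (R 4.3.3): filterByExpr, TMM factors, the quasi-likelihood test, prior count 2, and the library as replicate block. Sums of a library share its suspension, which pairs them. P-values were adjusted by Benjamini-Hochberg at a threshold of 0.05 over all genes tested, the marker genes that chose the groups were left uncounted among calls, and the script was tested on simulated data. The 4 groups share 1 estimate of spread. Where a group had 0 UMIs, a floor of 3 UMIs over both libraries gave a bound, and with few UMIs an exact binomial 95% interval was taken on TMM-scaled totals. All intervals cover counting error only. Named genes were the 15 largest rises and 10 largest falls over pericyte-like barcodes and the 10 largest rises over the remaining barcodes. They were ranked by fitted log2 fold change, also where a group had 0 UMIs, so the bounds do not follow this rank. Each had adjusted p under 0.05, the same direction in both libraries and at least 50 CPM in the higher group. None was a rule, mitochondrial or predicted gene, and up to 4 genes a list were taken by abundance. Further list genes, the Rgs5 sets and a threshold of 100 UMIs were chosen after their values were seen. Promoter windows are from RefSeq, and gene positions from GENCODE on GRCm38. Alternatives were DESeq2 1.42.0, no TMM factors, no gene filter, no block, other thresholds, thinning to 1000 UMIs, and leaving out doublets, mitochondria-rich barcodes, members of other classes or a library. A few genes are not reported here.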

Additional observations from a re-analysis of the deposited data

How the results depend on the processing

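Thinning every barcode to 1000 UMIs lowered the calls against pericyte-like barcodes to 407 higher and 285 lower (of 7144 genes tested), against endothelial-like barcodes to 686 and 822, and against the remaining barcodes to 870 and 1037. In every other alternative, the threshold of 100 UMIs chosen after seeing the data included, these counts stayed within 1.5 times. Without the replicate block the calls against pericyte-like barcodes were 1055 higher and 731 lower. Of the 2084 main calls there, rule genes included, 1763 were kept without the block. After thinning, 663 of the 1717 that could be tested were kept. The named genes had been picked for large fold changes with the same direction in both libraries. All 25 genes named against pericyte-like barcodes stayed called in the alternatives, apart from Plin4 without the block and, after thinning, Ccn3, Ptpn22 and Ccl11, with Myocd and Saa2 too sparse to test. Genes that had not passed the test changed sign: Cald1 to 0.18 without members of other classes, Vcl to -0.15 without TMM factors and -0.048 at a threshold of 5 UMIs, Cacna1c to -0.055 without TMM factors and -0.515 after thinning, and Mef2a to -0.032 without TMM factors. Gucy1a1, at -0.01, became 0.012 without the block, 0.052 at 20 UMIs, 0.10 at 100 UMIs, 0.37 without members of other classes, 0.049 without doublets, 0.042 after thinning and 0.039 against pericyte-like barcodes with 0 contractile UMIs. With 1 library left out each group held 1 sum, so values had no test: of 112 gene values, 18 without library 1 and 11 without library 2 moved by more than 1 SD between libraries or changed sign. The sign changed only in genes that had not passed the test (Vcl, Cacna1c, Itpr1, Gucy1a1, Mef2a and Mgp). The members' share stayed within its counting interval in each alternative run. Of the same 112, calls were lost for 15 without the block, 26 after thinning and 9 without members of other classes, Rgs5 among the first 2 groups.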
